A study of Homo sapiens with 9 samples.

Results

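The control peptide arm of the series, SCR, was compared with untreated cells, UT, array by array. The arrays were chosen by their titles alone. They are the 3 arrays titled as scrambled SID and the 3 titled as untreated, 6 of 9 arrays in all, and they were described across 18418 genes. The untreated titles carry a further number in brackets after the replicate number, which the scrambled and SID titles lack. No source used here explains it. The question was what a control peptide by itself shows on the arrays. The labels describe the cultures as MDA-MB-231, an established human triple negative breast cancer cell line, grown below confluence. The number in the source names is not the same for every array, which no source used here explains. Marker genes described below in part go against this line. UT cells received no peptide. SCR cells received for 24 hours a peptide in which the residues of SID stand in scrambled order behind TAT, a short basic sequence that carries cargo into cells. The methods of the study give 2.5 μM for SCR, while the sample labels give this dose for SID alone. The remaining 3 arrays hold cells treated with SID, the SIN3 interaction domain of the repressor MXD1 joined to TAT, and their values are given only side by side. The labels hold no group with TAT alone or with vehicle alone.

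SIN3A and SIN3B are large scaffold proteins that bring histone deacetylases to promoters. Repressors such as MXD1 bind a paired amphipathic helix of SIN3 through a short helix, and SID is a copy of that helix meant to compete with them. A scrambled peptide keeps the residues and the carrier but not their order, so it stands for the effects of the carrier, of uptake and of handling. MDA-MB-231 cells are mesenchymal in shape, carry much CD44 and vimentin, lack estrogen and progesterone receptor, and are known to have lost the CDKN2A and MTAP region of chromosome 9.

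RNA of each culture was hybridised to 1 Affymetrix human gene array, and the values are log2 signals, so that a difference of 1 is a 2-fold difference. The 3 SCR arrays did not form 1 group. SCR replicates 1 and 2 correlated with each other at 0.995 across the 19460 probes with 1 gene symbol. They correlated with the UT arrays at 0.923 to 0.926. SCR replicate 3 correlated with the UT arrays at 0.995 and with SCR replicates 1 and 2 at 0.927 and 0.928. These are correlations across probes, which are not independent, and are given as a description. The UT arrays correlated with each other at 0.995 to 0.997. The same split ran through the SID arrays, of which replicate 3 correlated with UT at 0.992 to 0.995 and with SCR replicate 3 at 0.996, while replicates 1 and 2 correlated with UT at 0.908 to 0.915. No UT array lay with SCR replicates 1 and 2, so for these 2 arrays the effect of the peptide and whatever else sets them apart cannot be told apart. Whether arrays or cultures were exchanged, or came from different experiments, was not tested, so a difference between SCR and UT is one between arrays with these labels. In a listing of the study, SCR replicate 3 is headed 72 hours, whereas the series text gives 24 hours for every array. The methods of the study state that its array analysis used medians of 2 biological replicates, without naming the arrays. The comparison of 3 with 3 arrays given below is therefore not that of the study. The arrays had medians of 8.41 to 8.46 over the tested probes, and the number of arrays limits the precision.

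**Figure D1:**
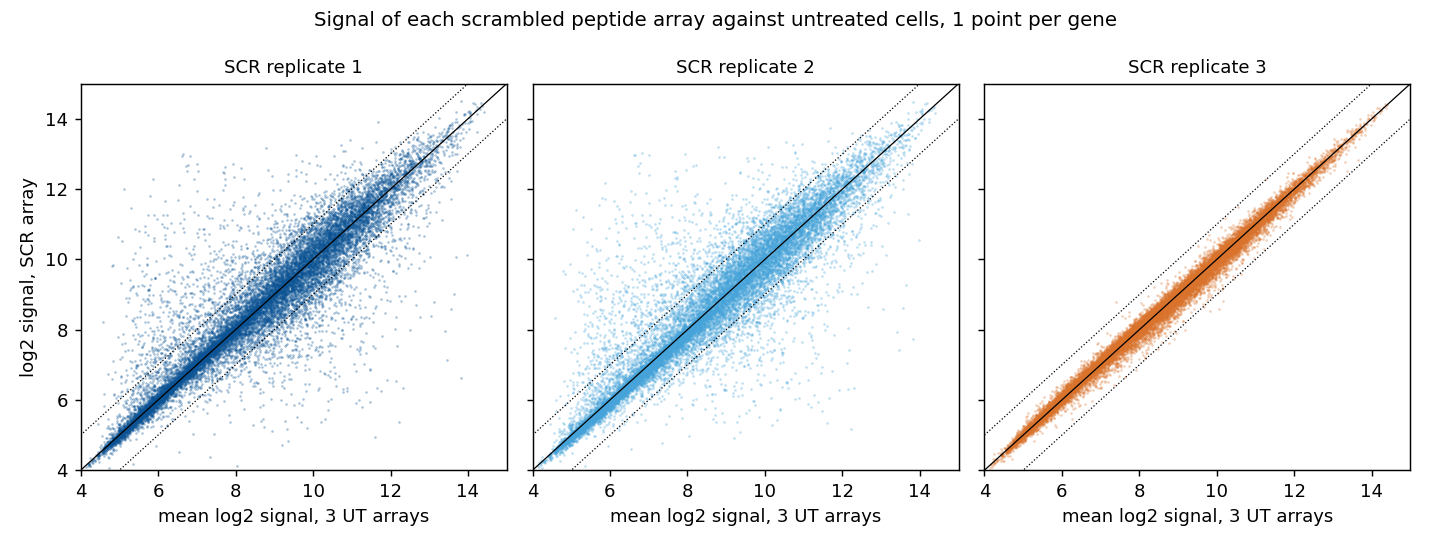
Log2 signal of each SCR array (vertical axis) against the mean of the 3 UT arrays (horizontal axis), with 1 point for each of 18418 genes, a solid line at equality and dotted lines at a difference of 1 to either side. In SCR replicates 1 and 2 many genes lie far outside the dotted lines, while in SCR replicate 3 only 13 genes lie beyond them.

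The marker genes of the cell line were read in every array before any comparison. CD44, the hyaluronan receptor, had log2 signals of 10.68, 10.72 and 10.77 in UT, of 13.25 and 13.25 in SCR replicates 1 and 2 and of 10.84 in SCR replicate 3. MMP14, a membrane-bound matrix protease, stood at 7.25, 7.67 and 7.26 in UT, at 11.17 and 11.74 in SCR replicates 1 and 2 and at 7.31 in SCR replicate 3. Vimentin (VIM) was high in all 6 arrays, between 12.75 and 13.34. Of 13 measured genes that mark the line, 7 were more than 1 higher in both SCR replicates 1 and 2 by the test described below. None was lower. These are 53.8% and 0.0%, beside 5.60% higher and 4.06% lower over all genes.

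CDKN2A and MTAP, genes of the region known to be lost in the line, were not at a low level in UT and SCR. CDKN2A, which encodes the cell cycle inhibitors p16 and p14ARF, stood at 10.97, 11.21 and 10.96 in UT, at 9.91 and 10.03 in SCR replicates 1 and 2 and at 10.97 in SCR replicate 3. MTAP, an enzyme of methionine salvage beside CDKN2A, stood at 9.43, 9.31 and 9.51 in UT, at 8.19 and 8.35 in SCR replicates 1 and 2 and at 9.37 in SCR replicate 3. In SID replicates 1 and 2 MTAP stood at 6.43 and 6.36, and in SID replicate 3 at 9.52. In this respect the UT and SCR arrays go against the cell line of their label, and they are called here the arrays labelled UT and SCR. SMAD4, the shared mediator of TGF-β and BMP signals, was at 5.71, 5.84 and 6.11 in UT and at 5.69 in SCR replicate 3, in the lower part of the signal range. It was at 10.60 and 10.61 in SCR replicates 1 and 2. The estrogen receptor ESR1 lay between 7.03 and 7.23 and the progesterone receptor PGR between 5.61 and 5.72 in all 6 arrays. CDH1 (E-cadherin), also counted as absent or low in the line, was not low in SCR replicates 1 and 2. Its mean over these 2 arrays was 3.75 above UT, which goes against the label, and its values are given below. ERBB2 and EPCAM, counted in the same way, are not described here. PTPRC and ALB, which mark white blood cells and liver cells, lay at 5.13 or below in all 6. Of 18 measured markers of other cell types, 3 were higher and 1 was lower in both SCR replicates 1 and 2. These are 16.7% and 5.56%, beside 5.60% and 4.06% of all genes. Their part in the results was not tested.

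Set against each other as 3 arrays against 3, SCR and UT gave no called gene. A call needed an adjusted p under 0.05 from limma, fitted on all 9 arrays, and a difference above 1 or below -1. Of 19460 probes, 0 were called higher (0.0%) and 0 lower (0.0%). The lowest adjusted p was 0.332, and 2811 probes had an unadjusted p under 0.05. A t-test with equal variances on the same signals also called 0 after adjustment, with 1794 probes at an unadjusted p under 0.05. It is not the array analysis of the study, which worked on single probes. Without SCR replicate 3 limma called 615 probes higher and 456 lower. Without SCR replicate 1 or without SCR replicate 2 it called 0 in either direction. The median SD over 3 arrays was 0.10 in UT and 0.17 in SCR. The count of 0 does not show that SCR and UT were alike.

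Each SCR array was then fitted by itself against the 3 UT arrays. This fit has no replicate of the SCR array, whose spread is assumed to equal that between UT arrays, and its p-values compare that array with UT. In SCR replicate 1, 1235 probes were called higher (6.35%) and 1012 lower (5.2%). In SCR replicate 2, 1329 probes were called higher (6.83%) and 877 lower (4.51%). In SCR replicate 3, 0 were called higher (0.0%) and 0 lower (0.0%). The lowest adjusted p of SCR replicate 3 was 0.473, and 1709 of its probes had an unadjusted p under 0.05. Without UT replicate 3 the calls fell to 694 higher and 514 lower in SCR replicate 1 and to 768 higher and 455 lower in SCR replicate 2. By size alone, 2 probes of SCR replicate 3 lay more than 1 above UT and 11 lay more than 1 below it. For scale, each UT array had 2 to 30 probes more than 1 away from the mean of the other UT arrays.

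SCR replicates 1 and 2 were set against the same UT arrays, so their calls are not independent of each other. Of the probes, 1077 were called higher in both (5.53%), 777 were called lower in both (3.99%) and 0 were called in opposite directions. Set directly against each other, which does not use UT, 4 probes were more than 1 higher in SCR replicate 1 than in SCR replicate 2, and 26 were more than 1 lower. The 1077 probes had a median log2 signal of 7.52 in UT, 9.76 and 9.81 in SCR replicates 1 and 2 and 7.5 in SCR replicate 3. The 777 probes had medians of 10.19, 8.20, 8.27 and 9.96 in the same order. SCR replicate 3 thus lay with UT for the former, with a median difference of 0.01, and slightly below it for the latter, with a median difference of -0.22.

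The genes with the lowest mean differences, SCR minus UT, described here had high signals in UT. STEAP4, a metalloreductase of iron and copper uptake, had log2 signals of 13.89, 13.79 and 13.78 in UT and of 6.63 and 7.74 in SCR replicates 1 and 2. It stood at 13.68 in SCR replicate 3. CPS1, which makes carbamoyl phosphate in the first step of the urea cycle, stood at 13.49, 13.34 and 13.53 in UT, at 7.15 and 7.43 in SCR replicates 1 and 2 and at 13.45 in SCR replicate 3. Both genes thus fell from near the top of the signal range to its lower part in 2 SCR arrays, and SCR replicate 3 lay beside UT.

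The same split held for further genes of this kind. PDE3A, a phosphodiesterase of cyclic AMP, was between 12.24 and 12.44 in UT and at 6.34 and 6.34 in SCR replicates 1 and 2. BMP2, a bone morphogenetic protein, was between 13.36 and 13.44 in UT and at 7.97 and 7.94 in SCR replicates 1 and 2. In SCR replicate 3 PDE3A was at 12.28 and BMP2 at 13.22. A2M, a broad protease inhibitor of plasma, was at 11.75, 11.91 and 12.04 in UT, at 6.56 and 6.28 in SCR replicates 1 and 2 and at 11.14 in SCR replicate 3, which lay below all UT arrays. Over all 3 arrays, the mean difference of A2M was -3.91 (standard error 1.66, adjusted p = 0.344 from limma). The remaining genes among the 15 lowest were ALPI, BMP5, HPD, KIAA0825, PRG4, RERG, SCIN, TMEM47, SNORD116-21 and TARP. For TARP, which shares its locus with the T cell receptor γ genes, another probe gave a mean difference of 0.11 against -4.56, so its value rests on 1 probe.

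The genes with the highest mean differences described here were in the lower part of the signal range in UT. EHF, an epithelial transcription factor of the ETS family, had log2 signals of 6.10, 5.75 and 5.74 in UT, of 12.29 and 12.18 in SCR replicates 1 and 2 and of 6.38 in SCR replicate 3. HLA-DPA1, a chain of an MHC class II molecule that presents peptides, was between 6.45 and 6.80 in UT, at 12.94 and 12.97 in SCR replicates 1 and 2 and at 6.73 in SCR replicate 3. NT5E, which makes adenosine outside the cell (CD73), was between 6.47 and 6.92 in UT, at 12.99 and 12.96 in SCR replicates 1 and 2 and at 6.59 in SCR replicate 3. All 3 genes went from little signal to nearly the top of the range in 2 arrays.

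ANKRD1, a target of the YAP coactivator, was at 6.67, 6.85 and 6.96 in UT, at 12.95 and 13.02 in SCR replicates 1 and 2 and at 6.93 in SCR replicate 3. Its mean difference over 3 arrays was 4.14 (standard error 2.16, adjusted p = 0.385 from limma). The others among the 15 highest were ARHGDIB, CST1, EMP1, EVI2B, LAPTM5, MAP1B, PLAC8, SAA2, SPANXB1, the long noncoding RNA UCA1 and ZNF626. In SID replicates 1 and 2 the values lay near those of SCR replicates 1 and 2 for EHF (12.47 and 12.34) and STEAP4 (6.05 and 5.56). In SID replicate 3 they lay near UT, at 6.47 and 13.59. SID and SCR were both set against the same UT arrays.

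**Figure D2:**
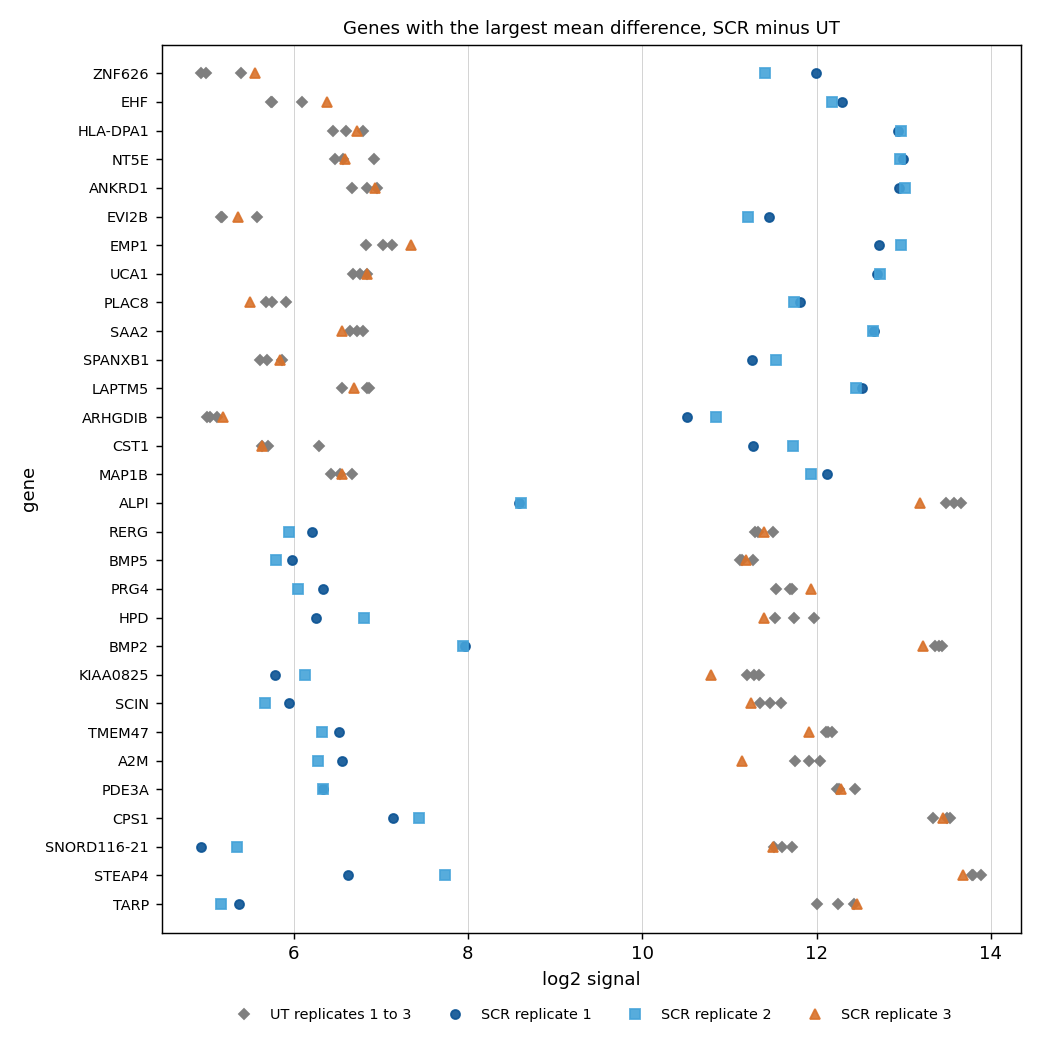
Log2 signal (horizontal axis) of the 15 genes with the highest and the 15 with the lowest mean difference, SCR minus UT, with 1 symbol per array. SCR replicates 1 and 2 lie together and far from the UT arrays for each gene. SCR replicate 3 lies much closer to the UT arrays than to these replicates, though below every UT array for A2M.

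Gene lists were read by the number of members called in the same direction in both SCR replicates 1 and 2, beside 5.60% higher and 4.06% lower over all 18418 genes. Interferon-stimulated genes, which defend cells against viruses, had 18 of 37 higher and 2 lower. Their median difference was 0.79 in SCR replicate 1, 0.96 in SCR replicate 2 and -0.03 in SCR replicate 3, beside 0.02, -0.03 and 0.01 over all genes. SAMD9L, an antiviral factor, stood at 5.75, 5.63 and 5.82 in UT, at 10.69 and 10.28 in SCR replicates 1 and 2 and at 5.76 in SCR replicate 3. RIGI, a sensor of viral RNA, stood at 7.67, 7.56 and 7.81 in UT, at 10.94 and 10.78 in SCR replicates 1 and 2 and at 7.46 in SCR replicate 3. Genes of NF-κB and cytokines had 13 of 40 higher and 0 lower. CXCL8, a chemokine that draws neutrophils, was between 6.75 and 7.10 in UT, at 11.34 and 11.01 in SCR replicates 1 and 2 and at 7.27 in SCR replicate 3. IL1B was between 6.26 and 6.35 in UT, at 10.39 and 11.25 in SCR replicates 1 and 2 and at 6.41 in SCR replicate 3. Both cytokines lay slightly above all UT arrays in SCR replicate 3. Of 31 genes of innate sensing, 8 were higher and 1 lower.

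Growth factor genes went both ways. Among ligands of the EGF receptor and other growth factors, 9 of 27 were higher and 6 lower. HBEGF, a ligand of the EGF receptor, was between 7.79 and 8.12 in UT and at 12.34 and 12.53 in SCR replicates 1 and 2. FGFR2, a receptor of fibroblast growth factors, was between 10.99 and 11.35 in UT and at 7.39 and 7.80 in SCR replicates 1 and 2. In SCR replicate 3 HBEGF stood at 7.94 and FGFR2 at 10.78. Immediate early and AP-1 genes had 11 of 35 higher and 6 lower, with DUSP6, a phosphatase of ERK, 4.43 and 4.42 above UT and NR4A2, an orphan nuclear receptor, 2.60 and 2.66 below it. In the TGF-β and BMP list 12 of 40 were higher and 5 lower. BMP4 stood 5.35 and 4.95 above the UT mean, while BMP2, described above, stood 5.43 and 5.46 below it. These 2 ligands thus lay on opposite sides of UT in the same arrays.

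Adhesion genes did not fall on one side of the epithelial and mesenchymal division. Of 36 genes of epithelial junctions, 10 were higher and 2 lower, and of 26 mesenchymal genes, 6 were higher and 4 lower. CDH1 (E-cadherin), the adhesion molecule of epithelia, was at 6.89, 6.81 and 6.87 in UT, at 10.13 and 11.08 in SCR replicates 1 and 2 and at 6.73 in SCR replicate 3. In SID replicates 1 and 2 it was at 7.05 and 7.26. CDH11, a cadherin of mesenchymal cells, was between 6.28 and 6.34 in UT, at 11.02 and 11.06 in SCR replicates 1 and 2 and at 6.45 in SCR replicate 3. FN1 (fibronectin), a matrix protein, was between 8.78 and 9.18 in UT, at 11.98 and 12.18 in SCR replicates 1 and 2 and at 8.51 in SCR replicate 3, below all UT arrays. E-cadherin and CDH11 thus stood high together in SCR replicates 1 and 2, and both were low in UT and in SCR replicate 3.

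**Figure D3:**
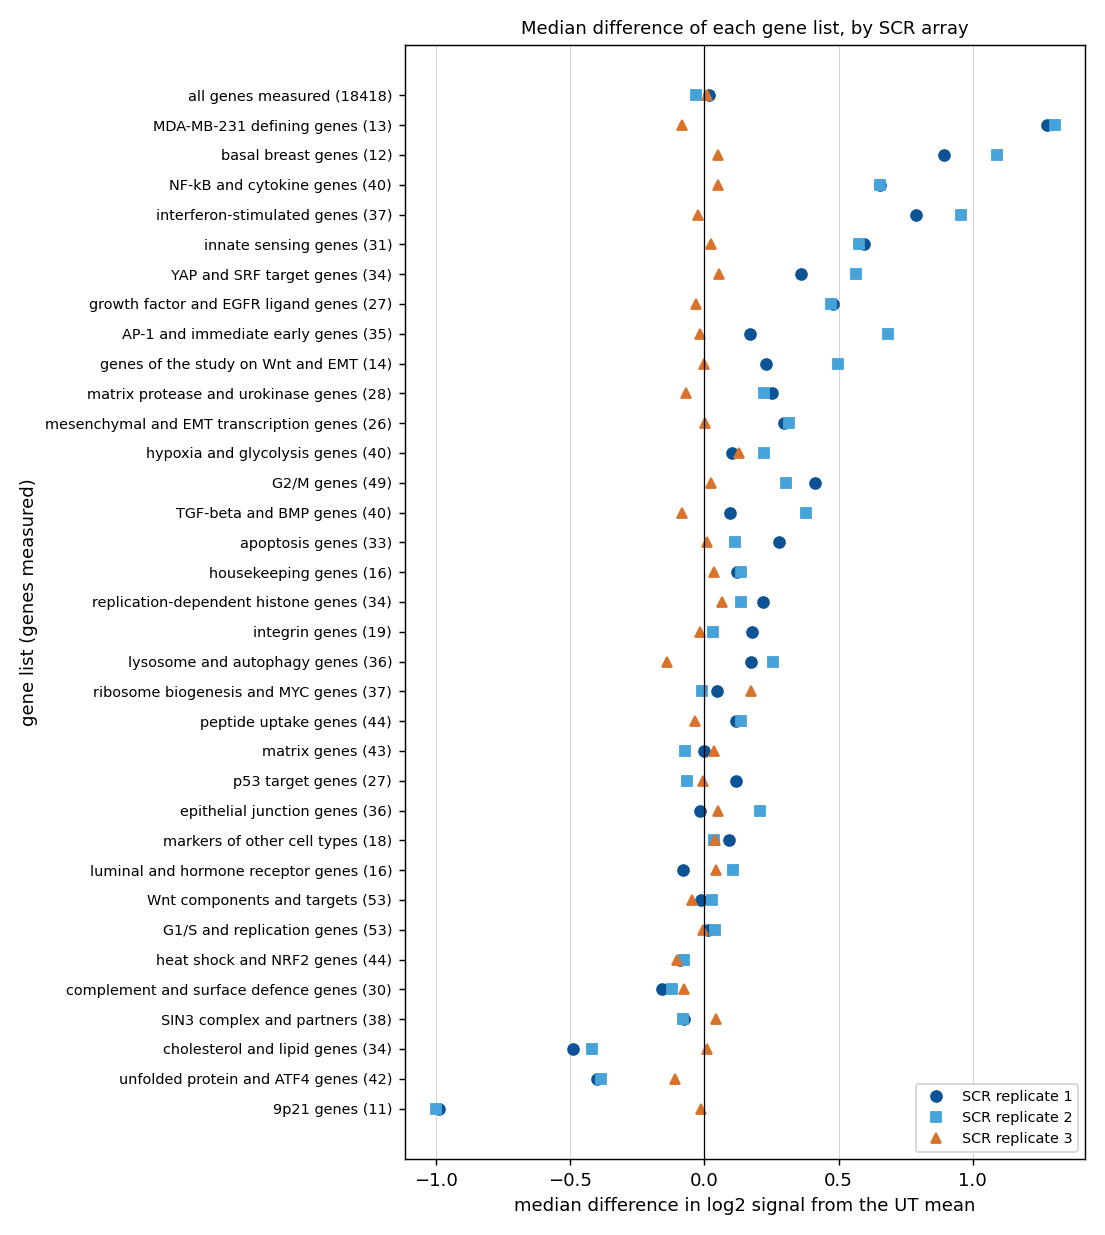
Median difference in log2 signal from the UT mean (horizontal axis) of each gene list (vertical axis, with the genes measured), with 1 symbol per SCR array. SCR replicates 1 and 2 spread from -1.0 for genes of chromosome 9p21 to 1.31 for genes that define the cell line, while SCR replicate 3 stays between -0.14 and 0.17.

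Some of the differences lay in blocks along chromosomes. Gene order was taken from RefSeq (GRCh38.p14), and medians were formed over each run of 10 neighbouring genes. A run of KRAB zinc finger genes on chromosome 19, from ZNF14 to ZNF626, had a median difference of 3.63 in SCR replicate 1, 3.14 in SCR replicate 2 and -0.05 in SCR replicate 3. Among the 8 highest runs that share no gene, 4 lay on chromosome 19 and were made up largely of zinc finger genes. On chromosome 4 the run from MRPL1 to FGF5 stood at 1.73, 1.68 and -0.02. The lowest runs held copies of the small nucleolar RNA SNORD116 on chromosome 15, an imprinted cluster expressed from the paternal copy, with -4.24 in SCR replicate 1, -3.13 in SCR replicate 2 and 0.11 in SCR replicate 3. Copies of SNORD116 are near-identical and could share signal. Of 18155 runs, 354 had a median above 0.5 in both SCR replicates 1 and 2 and 189 a median below -0.5. In SCR replicate 3 no run passed 0.5 in either direction, and the largest median was 0.43 in size. Of 709 genes on chromosome 4, 111 were called higher and 25 lower in SCR replicate 1, and 95 and 26 in SCR replicate 2. Of 423 genes on chromosome 22, 5 were called higher and 38 lower in SCR replicate 1, and 9 and 24 in SCR replicate 2. Over all 18418 genes, 1185 were called higher and 975 lower in SCR replicate 1, and 1271 and 841 in SCR replicate 2.

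What all 3 SCR arrays had in common was smaller. Taken without a test, 1852 probes lay above every UT array in all 3 SCR arrays (9.52%) and 2341 lay below (12.0%). The larger side depended on the scaling, since centring each array on its median gave 2487 above and 1984 below. Of these, 20 were also more than 0.5 above the UT mean in each SCR array (0.103%) and 163 more than 0.5 below it (0.838%). More than 1 above the UT mean in all 3 SCR arrays there were 0, and more than 1 below it there were 7. The size by which a gene lay beyond the UT mean in its least deviating SCR array was used to order these genes. In 169 of these 183 probes the least difference was that of SCR replicate 3.

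The genes leading this order downward and upward were AKR1C2 and CGA, and H2BC14 and SEC11C. Their promoters are shown because these genes moved the same way in all 3 SCR arrays. Each window holds the 250 bases before the RefSeq start site on the gene's own strand (GRCh38.p14), and capitals mark the matches to a motif on either strand.

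AKR1C2, chr10:5003858-5004107, minus strand: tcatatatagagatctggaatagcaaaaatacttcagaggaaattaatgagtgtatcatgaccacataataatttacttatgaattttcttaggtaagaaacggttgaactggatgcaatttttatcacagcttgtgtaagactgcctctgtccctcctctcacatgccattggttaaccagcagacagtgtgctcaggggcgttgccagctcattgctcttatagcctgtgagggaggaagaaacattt
CGA, chr6:87095107-87095356, minus strand: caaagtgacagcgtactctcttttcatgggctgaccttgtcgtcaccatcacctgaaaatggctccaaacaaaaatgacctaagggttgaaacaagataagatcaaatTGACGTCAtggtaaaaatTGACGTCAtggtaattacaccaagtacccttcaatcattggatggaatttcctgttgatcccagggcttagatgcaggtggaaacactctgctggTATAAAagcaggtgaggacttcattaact
H2BC14, chr6:27814772-27815021, plus strand: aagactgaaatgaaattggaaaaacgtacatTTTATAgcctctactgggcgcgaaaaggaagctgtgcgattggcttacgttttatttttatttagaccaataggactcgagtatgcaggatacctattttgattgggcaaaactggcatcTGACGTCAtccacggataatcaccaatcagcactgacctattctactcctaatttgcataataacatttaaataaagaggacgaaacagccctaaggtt
SEC11C, chr18:59139634-59139883, plus strand: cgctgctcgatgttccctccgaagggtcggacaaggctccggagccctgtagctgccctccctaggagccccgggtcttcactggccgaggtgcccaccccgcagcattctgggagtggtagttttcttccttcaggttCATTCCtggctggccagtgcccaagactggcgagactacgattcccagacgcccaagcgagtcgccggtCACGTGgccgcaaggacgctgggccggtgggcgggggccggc

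The motifs searched were the AP-1 site TGANTCA, the TEAD site GGAATG, the E-box CACGTG, the TATA box TATAAA, the core ACGTG bound by hypoxia-inducible factors, which overlaps the E-box, and the cyclic AMP response element TGACGTCA. The last 2 were added after values and sequences had been seen. CGA held 2 copies of TGACGTCA, 142 and 124 bases before the start, and TATAAA 29 bases before it. H2BC14 held 1 copy of TGACGTCA, 99 bases before the start. SEC11C held CACGTG 42 bases before the start, and AKR1C2 held none of the 6. Of 14237 promoters of measured genes, 2.37% held TGACGTCA, 7.86% CACGTG and 21.1% ACGTG. Of the 17 genes with a promoter sequence among the 20 above UT by more than 0.5, 2 held TGACGTCA, 5 held CACGTG and 7 held ACGTG. Of the 121 with a promoter sequence among the 154 genes below UT by more than 0.5, 3 held TGACGTCA, 4 held CACGTG and 21 held ACGTG. These are matches of letters, not binding sites. Genes called higher or lower in both SCR replicates 1 and 2 had TGANTCA in 6.93% and 4.21% of their promoters, beside 4.91% of all, and a median of 19 CpG in either set, beside 18.

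AKR1C2, an aldo-keto reductase of steroids and a target of the oxidative stress factor NRF2, had log2 signals of 9.98, 9.83 and 10.38 in UT and of 7.51, 7.35 and 8.58 in SCR replicates 1, 2 and 3. All SCR arrays lay below all UT arrays, with a mean difference of -2.25 (standard error 0.33, adjusted p = 0.332 from limma). Its paralog AKR1C1 was at 10.48, 10.53 and 10.84 in UT and at 9.42, 8.85 and 9.59 in SCR, while its other probe gave a mean difference of -0.22. The paralogs are near-identical and may share probe signal. In SID, AKR1C2 stood at 9.11, 9.49 and 9.03.

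CGA, the α subunit shared by the glycoprotein hormones, was at 9.96, 10.42 and 10.12 in UT and at 6.82, 7.14 and 8.81 in SCR. SLC46A3, a lysosomal transporter, was at 10.01, 9.67 and 9.78 in UT and at 8.26, 8.22 and 8.54 in SCR, so that SCR replicate 3 lay almost as low as the others. In SID it stood at 7.73, 7.34 and 8.53, with SID replicate 3 close to SCR replicate 3. MAP2, a microtubule protein of neurons, was at 9.37, 8.86 and 9.30 in UT and at 5.99, 6.12 and 7.99 in SCR. SLC46A3 was the gene on which the 3 SCR arrays lay closest together among the 15 that led downward. Further genes among these 15 were ADGRG3, ALDH1L2, ANKRD13C-DT, CIB2, CLYBL, EML2, LINC01260, LINGO2, POPDC1 and TEX19.

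In the upward direction H2BC14, a replication-dependent histone H2B gene, was at 10.30, 10.59 and 10.74 in UT and at 12.94, 13.35 and 11.50 in SCR. PLIN2, which coats lipid droplets, was at 9.95, 9.46 and 9.84 in UT and at 10.84, 11.07 and 10.59 in SCR, and at 12.08, 12.16 and 10.53 in SID. RBM3, an RNA-binding protein induced by mild cold, was at 9.74, 9.61 and 9.75 in UT and at 10.92, 10.77 and 10.36 in SCR. SEC11C, a subunit of the signal peptidase, was at 8.07, 6.82 and 7.73 in UT and at 8.61, 8.79 and 8.40 in SCR, so its UT arrays differed among themselves by more than its distance to SCR. Of these genes H2BC14, PLIN2 and RBM3 were called higher in SCR replicates 1 and 2, and SEC11C in neither.

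**Figure D4:**
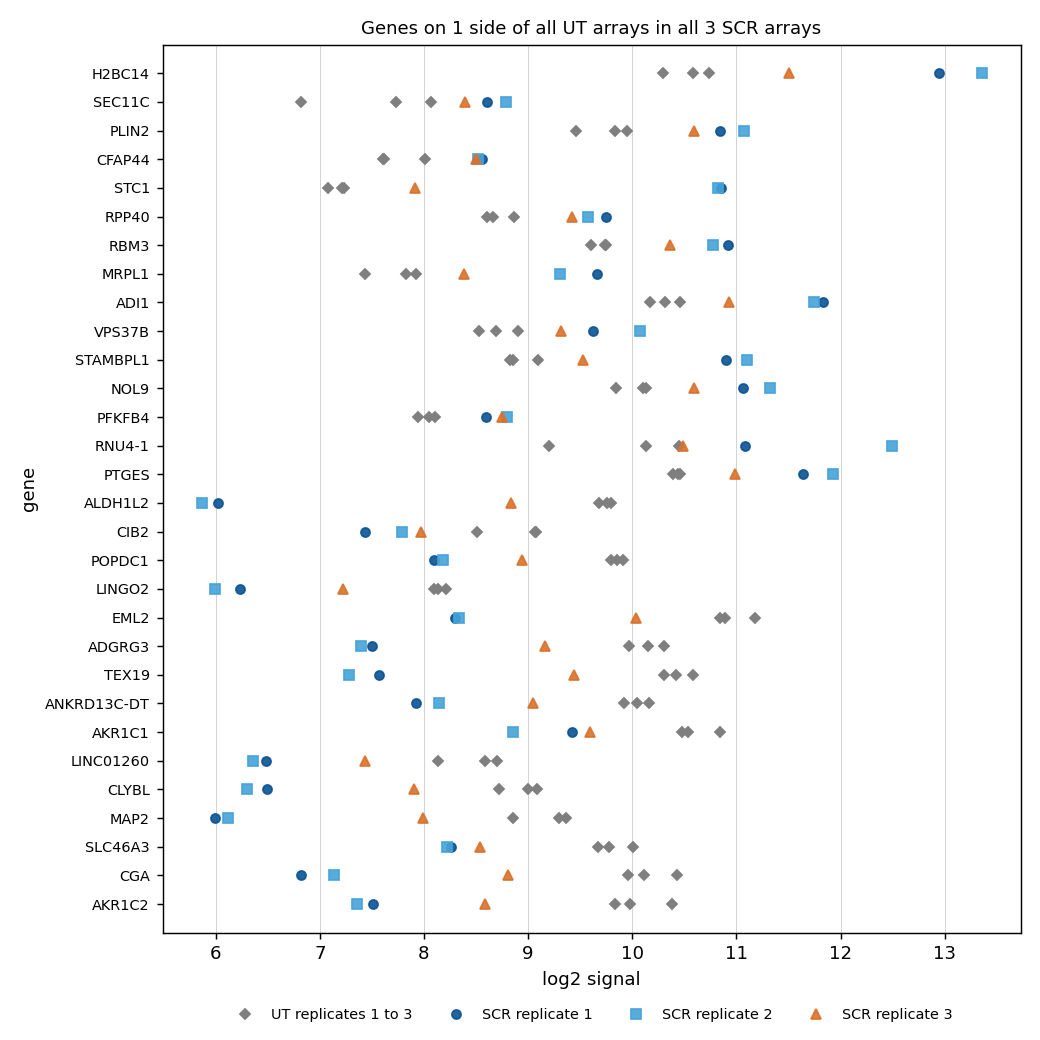
Log2 signal (horizontal axis) of the genes that lay on the same side of all UT arrays in all 3 SCR arrays, 15 per direction by their least difference, with 1 symbol per array. SCR replicate 3 lies between the UT arrays and SCR replicates 1 and 2 for most genes, and close to the latter for SLC46A3.

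Hypoxia and glycolysis genes lay above UT more often than below it in this comparison of ranges. Cells short of oxygen stabilise hypoxia-inducible factors, which raise glucose uptake, glycolysis and angiogenic factors. Of 40 measured, 16 lay above every UT array in all 3 SCR arrays and 2 below, that is 40% and 5.0%, beside 9.59% and 12.1% of all genes. After centring on the median, a scaling of these counts chosen after seeing the data, 17 lay above and 2 below, beside 12.9% and 10.3% of all genes. SLC2A1, the glucose transporter GLUT1, was at 11.79, 11.76 and 11.88 in UT and at 13.06, 13.19 and 12.35 in SCR. PFKFB4, which sets the level of a regulator of glycolysis, was at 8.05, 7.94 and 8.10 in UT and at 8.60, 8.80 and 8.75 in SCR. VEGFA, the angiogenic growth factor, named after its values were seen, was 0.48, 0.68 and 0.30 above UT. None of the 40 was called in the fit of 3 against 3 arrays. In both SCR replicates 1 and 2, 4 were called higher and 4 lower, that is 10.0% and 10.0%, beside 5.60% and 4.06% of all genes. Among those called lower were ALDOC and the glucose transporter SLC2A3.

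NDRG1, which rises with hypoxia in many cell types, was at 11.29, 11.25 and 11.24 in UT, at 11.32 and 11.83 in SCR replicates 1 and 2 and at 12.29 in SCR replicate 3. ADM (adrenomedullin), a vasodilator peptide, was between 9.73 and 9.93 in UT, at 9.96 and 10.13 in SCR replicates 1 and 2 and at 10.69 in SCR replicate 3. For both genes SCR replicate 3 was the highest of the 6 arrays. In SID replicate 3 they stood at 12.27 and 10.47. Of the 40 genes, 32 were above the UT mean in SCR replicate 3 and 8 below it, beside 9728 above and 8665 below over all genes. The median of the list was 0.13 in SCR replicate 3, while the UT arrays, each set against the other 2, gave -0.03, -0.03 and 0.05. The promoters of 36 of the genes were in the sequence table, and 18 of them held ACGTG (50%), beside 21.1% of all promoters. They had a median of 24.5 CpG and 69.8% GC, beside 18 and 62.8% in all promoters, and ACGTG itself holds a CpG. The part of base composition in this share was not tested. The share covers all 36 promoters, whatever the SCR values of their genes. Since the list was made of genes known for hypoxia and glycolysis, the share describes the list and not these arrays.

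**Figure D5:**
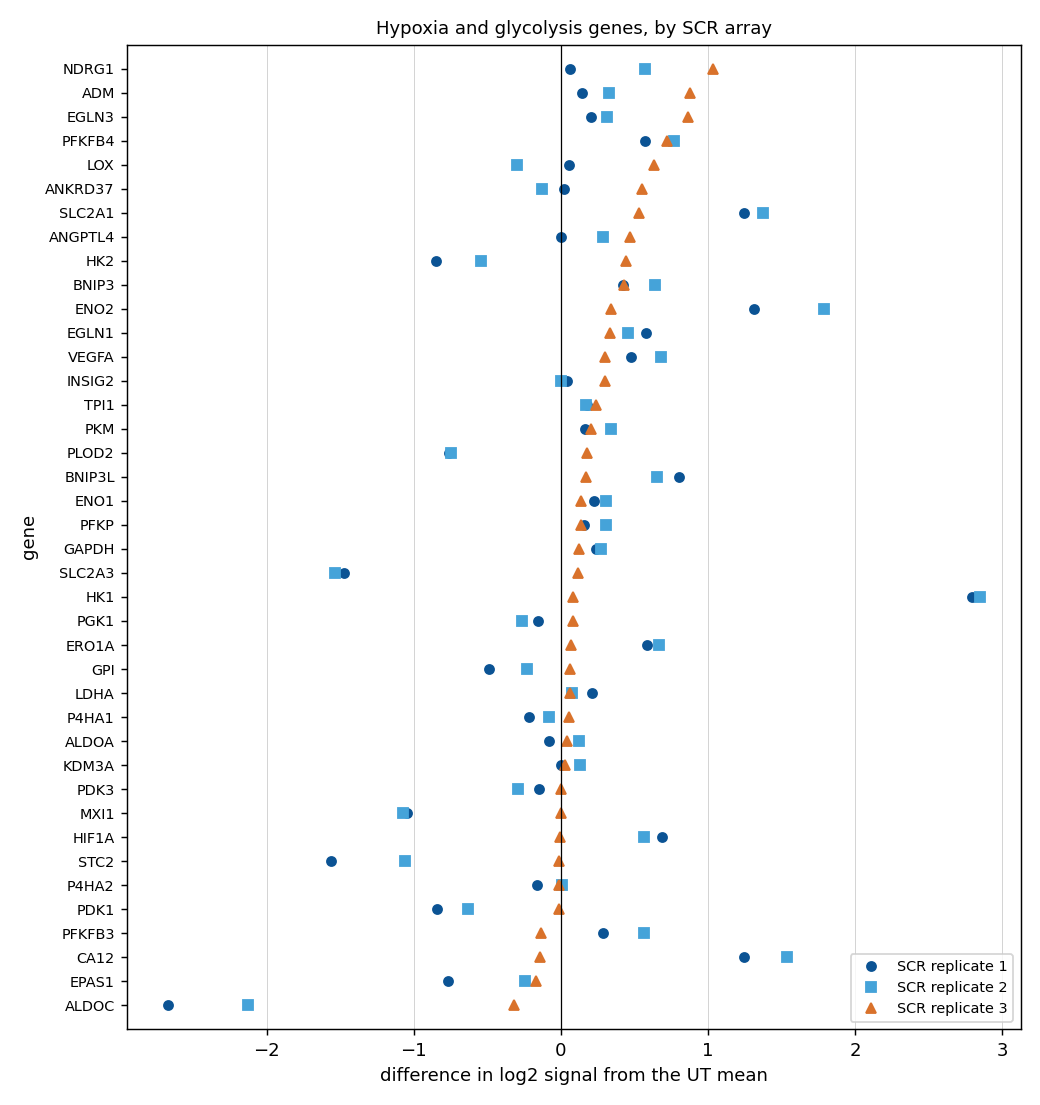
Difference in log2 signal from the UT mean (horizontal axis) of 40 hypoxia and glycolysis genes, ordered by SCR replicate 3, with 1 symbol per SCR array. In SCR replicate 3, 32 genes lie above 0, with NDRG1 at 1.04 the highest, and SCR replicates 1 and 2 spread more widely to both sides.

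Genes of the unfolded protein response and of ATF4, the factor that raises amino acid synthesis under stress, lay mostly below UT. Of 42 measured, 18 lay below every UT array in all 3 SCR arrays and 1 above, that is 42.9% and 2.38%, beside 12.1% and 9.59% of all genes. After centring on the median, 17 lay below and 1 above. CTH, which makes cysteine from cystathionine, was at 13.71, 13.55 and 13.65 in UT and at 9.0, 9.28 and 12.82 in SCR. ALDH1L2, a mitochondrial enzyme of folate metabolism, was at 9.76, 9.68 and 9.79 in UT and at 6.03, 5.87 and 8.83 in SCR. PHGDH, the first enzyme of serine synthesis, was at 12.86, 13.19 and 13.03 in UT and at 10.07, 10.37 and 12.55 in SCR. ASNS, asparagine synthetase, named after its values were seen, was 1.44, 1.16 and 0.61 below UT in the 3 arrays. These 4 enzymes were lower in every SCR array than in any UT array. The median of the list was -0.40, -0.39 and -0.11 in the 3 SCR arrays, and UT replicate 2 set against the other 2 UT arrays gave -0.12. In SID replicate 3 CTH stood at 12.68, and in SID replicates 1 and 2 at 10.26 and 11.21.

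Genes of ribosome biogenesis lay mostly above UT in SCR replicate 3. Of 37 genes, 34 were above the UT mean in that array, with a median of 0.17, against medians of 0.05 and -0.01 in SCR replicates 1 and 2. None of the 37 was called in both SCR replicates 1 and 2, which is read beside 5.60% higher and 4.06% lower over all genes. In all 3 SCR arrays 9 lay above every UT array and 2 below, that is 24.3% and 5.41%, beside 9.59% and 12.1% of all genes. Each UT array set against the other 2 gave medians of 0.07, -0.16 and 0.07 for the same list, so UT arrays differed among themselves by as much. Genes of lysosomes and autophagy had a median of -0.14 in SCR replicate 3 and of 0.17 and 0.25 in SCR replicates 1 and 2. Genes of peptide uptake, such as heparan sulfate proteoglycans, caveolin 1 and clathrin coat proteins, had 5 of 44 higher and 5 lower in SCR replicates 1 and 2. CAV1, the coat protein of caveolae, was between 11.53 and 11.78 in UT and at 13.90, 13.74 and 11.94 in SCR.

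In SCR replicate 3 taken alone, ACTG2, a smooth muscle actin, lay furthest above UT. It was at 7.46, 7.43 and 7.29 in UT, at 6.57 and 6.54 in SCR replicates 1 and 2 and at 8.78 in SCR replicate 3, and at 9.42 in SID replicate 3. ABRACL, a small protein related to regulators of the actin cytoskeleton, was at 8.76, 9.0 and 8.96 in UT, at 9.67 and 9.84 in SCR replicates 1 and 2 and at 7.74 in SCR replicate 3, and at 7.93 in SID replicate 3. For both genes SCR replicate 3 lay on the other side of UT from SCR replicates 1 and 2. No adjusted p of limma passed the threshold for either in SCR replicate 3 (0.473 for ACTG2 and 0.473 for ABRACL).

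The machinery that SID addresses was read in the same way. SIN3A was at 11.11, 11.05 and 11.24 in UT and at 10.59, 10.74 and 11.20 in SCR. SIN3B lay between 9.70 and 9.93 in UT and between 9.84 and 10.01 in SCR. Of 38 measured genes of the SIN3 complex and its partners, 0 were called higher and 1 was called lower in both SCR replicates 1 and 2, namely MXI1, a MYC antagonist that binds SIN3, at 1.05 and 1.07 below UT. These are 0.0% and 2.63%, beside 5.60% and 4.06% of all genes, and are not read as a result about these 38 genes. TGIF1, a homeodomain repressor that binds SIN3A, was at 12.31, 12.33 and 12.28 in UT and at 11.65, 11.61 and 12.09 in SCR, so that all SCR arrays lay below all UT arrays. Its difference was -0.53 (standard error 0.22, adjusted p = 0.343 from limma). In SID it was at 12.81, 12.91 and 12.14. MYC was called lower in SCR replicate 1, at 1.20 below UT, and not in SCR replicate 2, at 0.91 below.

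Among 53 Wnt components and targets, 7 were higher and 5 lower in both SCR replicates 1 and 2, that is 13.2% and 9.43%, beside 5.60% and 4.06% of all genes. In all 3 SCR arrays 11 lay below every UT array and 4 above, that is 20.8% and 7.55%, beside 12.1% and 9.59%. WNT5A, a ligand of noncanonical Wnt signals, was at 9.96, 9.71 and 9.79 in UT and at 7.26, 7.64 and 9.58 in SCR. Its co-receptor ROR2 was at 10.13, 10.16 and 10.22 in UT and at 7.32, 7.19 and 10.13 in SCR. DKK1, a secreted inhibitor of Wnt co-receptors, was between 9.41 and 9.69 in UT and at 12.98, 12.89 and 9.53 in SCR. WNT5A and ROR2 thus stood low and DKK1 high in SCR replicates 1 and 2. The median difference of the whole list was -0.01 and 0.03 in these 2 arrays, so the 3 genes do not stand for the list. Of the 14 measured genes that the study followed for Wnt and EMT, 6 were higher and 0 lower. These are 42.9% and 0.0%, beside 5.60% and 4.06% of all genes. The study listed most of these genes because SID lay at least 2-fold below SCR on these arrays. That choice used the SCR values and favours genes that are high in SCR, so the counts are not read as a result. CTNNB1, MMP9, MMP14 and PLAU were listed because the study measured them by qPCR as further Wnt targets. FGF5, a fibroblast growth factor, was at 6.24, 6.30 and 6.35 in UT and at 9.17, 9.37 and 6.33 in SCR. TGFBR2, a receptor of TGF-β, was at 10.07, 10.04 and 10.12 in UT and at 11.80, 11.91 and 10.18 in SCR.

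Genes of cell division had counts on both sides of the shares over all genes. Of 49 genes of G2 and mitosis, 1 was called higher in both SCR replicates 1 and 2 (2.04%, beside 5.60% of all genes) and 0 lower. The SCR mean was above UT in 40 of the 49, beside 9446 above and 8968 below over all genes. The UT arrays differed among themselves on this list, with 40 genes of UT replicate 1 and 7 of UT replicate 2 above the mean of the other 2 UT arrays. Of 53 genes of G1, S phase and replication, 4 were higher and 1 lower (7.55% and 1.89%). Of 34 histone genes of the replication-dependent clusters, 7 were higher and 3 lower (20.6% and 8.82%). H3C11 was at 7.76, 7.72 and 7.53 in UT and at 12.48, 12.33 and 7.72 in SCR, and stood at 7.79 in each of the 3 SID arrays. Histone genes are highly alike, and their probes may share signal. Of 16 housekeeping genes, 0 were called in both SCR replicates 1 and 2, and 1 was called lower in SCR replicate 1 alone. With so few genes a count of 0 is near the shares over all genes and is not read as a result. The largest mean difference over the 3 SCR arrays was that of SDHA, a subunit of succinate dehydrogenase, at -0.74.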

How the data were processed

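RNA of cultures labelled as untreated, SCR-treated and SID-treated MDA-MB-231 was measured on 9 arrays. The log2 signals per transcript cluster are as deposited by the authors, whose processing notes name Affymetrix Expression Console, RMA and Transcriptome Analysis Console, with no version. The log2 scale was read from the values, and the genome build of the array annotation is not given in the sources used here. The study itself analysed single probes in another program, which could not be repeated.

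Of 33297 probes, 19460 had 1 gene symbol in the platform annotation, 1754 several and 12083 none. The first were tested with no filter on low signals, and 19429 matched RefSeq by Entrez ID. A gene with several probes was described by the one with the highest mean over 9 arrays. SCR and UT means were tested in limma 3.58.1 under R 4.3.3 (lmFit, eBayes), with Benjamini-Hochberg adjustment over all tested probes. Each SCR array was also fitted as its own group against UT. The fits were tested on simulated data, which did not carry the split within SCR. Figures were drawn with matplotlib 3.10.9.

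The labels call the arrays independent replicates, and no source tells how cultures were kept apart, so p-values measure only the spread between these arrays. The groups and the 34 gene lists (1090 of 1193 members measured) were chosen with earlier results of these data known, as was the rule for named genes. The rule named the 15 genes with the highest and the 15 with the lowest mean difference, and 15 per direction with the largest least difference among genes beyond the UT range. It also named 5 per direction in SCR replicate 3, up to 5 members with the largest differences per list, genes of the study and cell markers. Other named genes were chosen after their values were seen. The alternatives tried were quantile normalization, weights per array, median centring, a filter on signals, all probes, the UT and SCR arrays alone, a trended robust prior, the t-test, a replicate block and leaving out each array. Replicates of SCR and UT with the same number did not deviate together (correlations of -0.07, -0.02 and -0.06).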

Additional observations from a re-analysis of the deposited data

Results flagged for a closer look

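Among the 12083 probes with no gene symbol, which no comparison above used, 1 lay more than 1 above the UT mean and above every UT array in all 3 SCR arrays. This probe, 7892609, had log2 signals of 6.10, 5.23 and 5.25 in UT and of 7.38, 7.35 and 6.68 in SCR. In SID it stood at 4.61, 5.83 and 6.80. Below UT by more than 1 there were 4 such probes. Of the 1754 probes with several symbols, 0 met either condition.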

How the results depend on the processing

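The comparison of 3 SCR with 3 UT arrays rests on SCR replicate 3. Its calls, 0 higher and 0 lower, became 1147 higher and 969 lower with array weights, whose estimate gave a convergence warning and gave SCR replicate 3 a weight of 0.18. On the UT and SCR arrays alone and with no SCR replicate 3 they were 1280 and 937. Leaving out 1 array at a time gave 0 to 615 higher and 0 to 456 lower. A replicate block, tried although equal numbers do not pair the arrays, called 0 in either direction, as did each other alternative run. Leaving out each UT array in turn gave 694 to 1125 higher and 514 to 959 lower for SCR replicate 1, 768 to 1206 higher and 455 to 842 lower for SCR replicate 2, and 0 for SCR replicate 3. Of 19460 probes, 1852 above and 2341 below the UT range became 2487 and 1984 with median centring, which turned the larger side, and 1995 and 2848 with quantile normalization.

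Of 98 genes named above, 82 were called with array weights and 38 without SCR replicate 3. The mean difference turned sign for 4 genes. Without each SCR array in turn ABRACL ranged from -0.20 to 0.85 and ACTG2 from -0.84 to 0.28. ESR1 was 0.0012 after centring, -0.072 to 0.042 without single arrays and 0.020 on UT and SCR arrays alone with no SCR replicate 3. With array weights SIN3B was -0.013. The causes were not tested. Quantile normalization moved the median of all probes by less than 0.1. SCR replicate 3 and SCR replicates 1 and 2 did not form 1 group, and the number of arrays limits every statement.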
